A study of Mus musculus with 12 samples.

Results

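The genes described here encode the nuclear subunits of oxidative phosphorylation, the set of mitochondrial complexes that pass electrons to oxygen and use the energy to make ATP. They were chosen by gene symbol alone: Ndufa, Ndufb, Ndufc, Ndufs and Ndufv symbols followed by a digit for complex I, Sdha to Sdhd for complex II, Uqcr symbols and Cyc1 for complex III, Cox4i, Cox5, Cox6, Cox7 and Cox8 symbols for complex IV, and Atp5 symbols for complex V. Of 24421 symbols in the files, 85 matched and 82 had at least 10 counts in at least 3 libraries. Ndufs5, Cox7b2 and Cox8c were not kept. The 82 genes comprised 36 of complex I, 4 of complex II, 9 of complex III, 16 of complex IV and 17 of complex V, and all were among the 16364 genes tested. In 80 of them every library held at least 10 counts, the exceptions being Cox6a2 and Cox8b. Subunits encoded in mitochondrial DNA were not analysed here.

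RNA was sequenced from 12 mouse samples, 3 in each of 4 groups. In 3 groups tumours had been raised by injecting the brain with RCAS virus, an avian retroviral vector, that carried the gene fusion YAP1-TFE3, YAP1-FAM118B or YAP1-MAMLD1-dR3R1, and whole tumour tissue was frozen. The fourth group was cortex of naive mice that received no injection. The labels give no strain, age or sex and do not say which cells could take up the virus. YAP1 is a transcriptional coactivator of the Hippo pathway, and fusions of it are found in human tumours, among them ependymoma and epithelioid hemangioendothelioma. The design sets each fusion against uninjected cortex and against the other fusions. A tissue label calls all 12 samples brain tumour and the extraction text speaks of cultured cells, so the source labels were followed. The naive libraries carried cortical markers, with Snap25 between 2102 and 3388 CPM and Camk2a between 1757 and 3122 CPM, a gene's count after scaling by library size. Nothing states that replicates came from separate litters, and p-values measure the spread between these samples.

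Total counts lay between 19850220 and 24760814 per library. Replicate 2 of YAP1-FAM118B and replicate 2 of naive had both Xist (162 and 25.6 CPM) and 4 Y-linked genes above 10 CPM. In every other library Xist or each of the Y-linked genes was at or below 0.434 CPM. All 3 YAP1-TFE3 libraries had the Y-linked genes above 10 CPM and Xist at or below 0.434 CPM. YAP1-MAMLD1-dR3R1 replicate 1, YAP1-FAM118B replicate 1 and naive replicate 3 had Xist (493, 320 and 305 CPM) and almost no Y-linked counts. Sex was thus uneven between the groups, and its part in the differences was not tested. YAP1-FAM118B replicate 2 also stood apart from replicates 1 and 3 of its group in osteoclast markers, which summed to 49.3 CPM against 4362 and 6735 CPM.

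Complex I takes electrons from NADH and complex II from succinate, and both hand them to coenzyme Q. Complex III passes them to cytochrome c and complex IV to oxygen, and complexes I, III and IV pump protons that drive the ATP synthase, complex V. Neurons depend heavily on this pathway, so cortex is a tissue of high mitochondrial demand. Several complex IV subunits exist as a ubiquitous form and a second form that is best known from muscle, testis or lung.

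The promoters of 67 of the 82 genes were in the RefSeq table (build GRCm38.p6), each from 250 bases before to 50 after the start. Short motifs of known regulators of respiratory genes were searched on both strands. GCATGCGC, the NRF1 motif, was in 10 of the 67 promoters (14.9%), against 4.78% of 12291 promoters of tested genes and 2.80% of all 27025 promoters. CCGGAAG, bound by ETS factors including GABP, was in 15 (22.4%), against 15.4% of promoters of tested genes. AAGGTCA, the half-site of estrogen-related receptors, was in 7 (10.4%), against 3.35%. AAGATGG, bound by YY1, was in 11 (16.4%), against 6.71%. TCACGTG, an E-box of the family that holds MITF and TFE3, was in 3 (4.48%), against 5.57%, and the 3 genes were Atp5l, Ndufa7 and Ndufv1. The E-box share was thus near that of promoters of tested genes, and over all 27025 promoters it was 3.84%. A match is a description of letters and not a bound site.

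The 5 stretches of 250 bases before a start are shown because their genes carry the results below or hold one of these motifs. Capitals mark the motif, read on the strand of the gene, so that TGACCTT is the reverse complement of AAGGTCA and CTTCCGG that of CCGGAAG. Atp5g3 (chr2:73911327-73911576, minus strand) holds an estrogen-related receptor motif, Sdhb (chr4:140961021-140961270, plus strand) an NRF1 motif and Sdhd (chr9:50603850-50604099, minus strand) an ETS motif. Ndufa7 (chr17:33824322-33824571, plus strand) holds the E-box and was chosen for it after its values were seen. Cox7a1 (chr7:30183921-30184170, plus strand), whose level set YAP1-TFE3 tumours apart, held none of the 5 motifs.
Atp5g3: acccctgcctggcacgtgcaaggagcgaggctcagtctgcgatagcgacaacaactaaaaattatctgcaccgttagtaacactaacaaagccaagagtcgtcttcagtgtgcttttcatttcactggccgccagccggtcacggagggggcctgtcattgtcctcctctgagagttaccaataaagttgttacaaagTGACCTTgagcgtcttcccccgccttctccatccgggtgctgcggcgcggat
Sdhb: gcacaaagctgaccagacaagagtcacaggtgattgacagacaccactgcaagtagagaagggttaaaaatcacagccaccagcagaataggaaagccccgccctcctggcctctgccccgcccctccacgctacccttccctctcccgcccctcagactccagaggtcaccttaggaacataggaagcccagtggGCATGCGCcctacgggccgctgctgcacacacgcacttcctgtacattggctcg
Sdhd: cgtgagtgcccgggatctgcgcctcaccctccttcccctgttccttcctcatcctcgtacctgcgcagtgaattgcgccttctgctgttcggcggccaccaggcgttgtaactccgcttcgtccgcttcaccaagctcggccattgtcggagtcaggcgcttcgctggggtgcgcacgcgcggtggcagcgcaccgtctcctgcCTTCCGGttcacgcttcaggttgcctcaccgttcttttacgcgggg
Ndufa7: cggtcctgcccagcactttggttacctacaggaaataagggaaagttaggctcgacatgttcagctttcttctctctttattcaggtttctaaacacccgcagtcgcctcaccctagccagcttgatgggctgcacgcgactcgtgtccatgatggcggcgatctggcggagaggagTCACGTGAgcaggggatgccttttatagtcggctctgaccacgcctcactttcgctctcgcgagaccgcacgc
Cox7a1: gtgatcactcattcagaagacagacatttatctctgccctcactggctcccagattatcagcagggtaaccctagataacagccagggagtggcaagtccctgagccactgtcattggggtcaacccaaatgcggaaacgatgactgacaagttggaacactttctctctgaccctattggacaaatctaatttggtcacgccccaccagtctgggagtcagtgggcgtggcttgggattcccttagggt

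The subunit genes were highest in YAP1-TFE3 tumours, in all 5 complexes, and lowest in YAP1-MAMLD1-dR3R1 tumours. Summed over the 82 genes, YAP1-TFE3 tumours had 18440, 17532 and 21843 CPM, YAP1-FAM118B tumours 9251, 8881 and 8710 CPM, YAP1-MAMLD1-dR3R1 tumours 6920, 7362 and 7262 CPM, and naive cortex 10181, 10741 and 10105 CPM. No 2 groups overlapped. The members took 1.63 to 1.91% of all counts in YAP1-TFE3 tumours, 0.898 to 0.971% in YAP1-FAM118B tumours, 0.718 to 0.767% in YAP1-MAMLD1-dR3R1 tumours, and 1.00 to 1.11% in naive cortex. Without Atp5a1 and Atp5b, the 2 most abundant members in CPM, the other 80 genes still summed to 13151, 12495 and 14879 CPM in YAP1-TFE3 tumours, against 8049, 8533 and 7918 CPM in naive cortex. Of the 82 genes, 71 had their highest group mean in YAP1-TFE3 tumours and 63 their lowest in YAP1-MAMLD1-dR3R1 tumours.

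**Figure D1:**
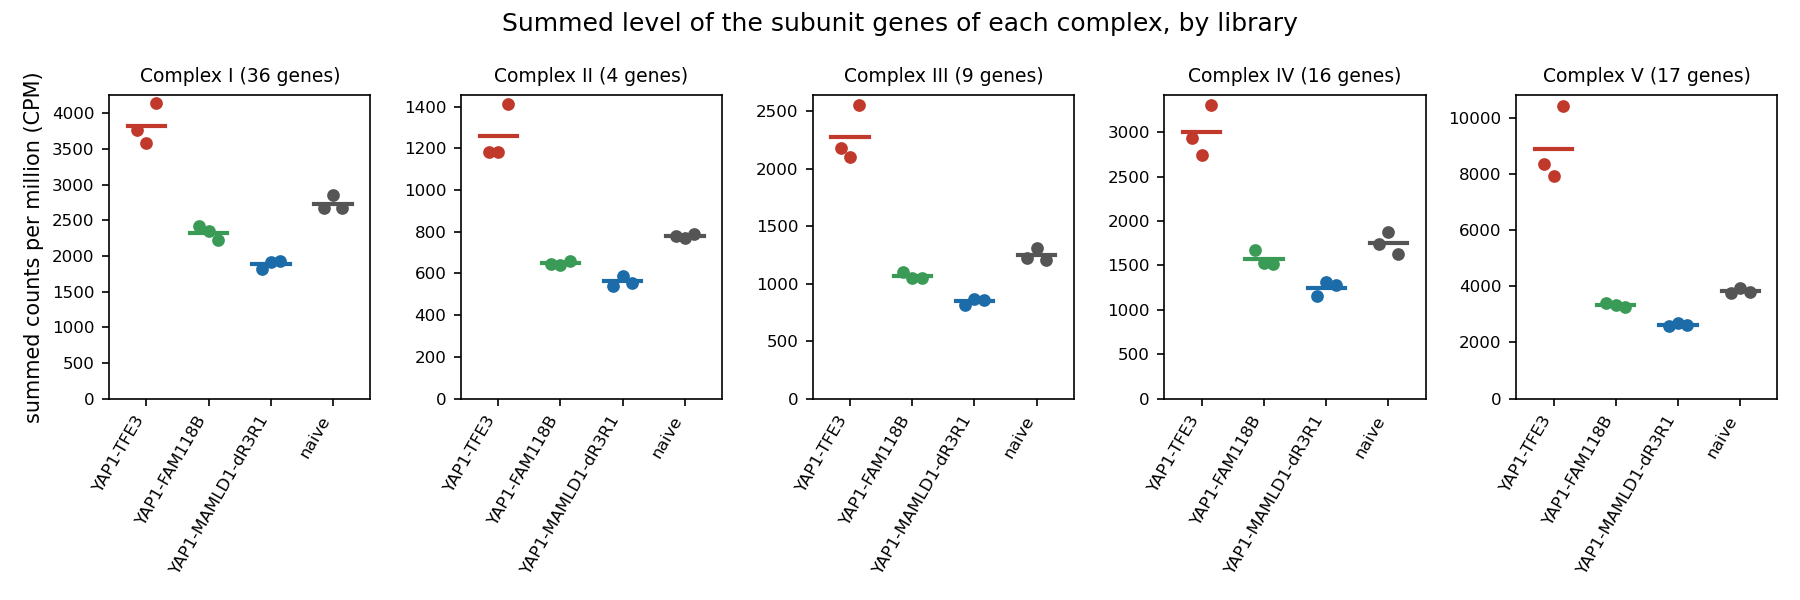
Summed CPM (y axis, from 0, a separate scale per panel) of the subunit genes of each complex in each of the 12 libraries (points), with the group mean as a bar. In complex V the YAP1-TFE3 libraries lie between 7928 and 10424 CPM, above all naive libraries (3746 to 3929 CPM), and the YAP1-MAMLD1-dR3R1 libraries (2594 to 2683 CPM) lie below them.

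Tested gene by gene with edgeR's quasi-likelihood test (Benjamini-Hochberg adjusted p under 0.05 over all genes), 64 members rose and 3 fell in YAP1-TFE3 tumours over naive cortex, where 40.6% of all genes tested were called higher and 30.0% lower. Their median log2 fold change was 0.69, beside 0.23 over all genes tested. In YAP1-MAMLD1-dR3R1 tumours over naive cortex 3 members rose and 54 fell, where 34.4% of all genes were called higher and 28.8% lower. The median there was -0.53, beside 0.06 over all genes. YAP1-FAM118B tumours over naive cortex had 2 members higher and 14 lower, where 21.3% of all genes were called higher and 8.45% lower, with a median of -0.21 beside -0.05. The 3 comparisons share the naive libraries. Libraries of the 2 groups did not overlap in 67 members higher and 5 lower in YAP1-TFE3 tumours over naive cortex, and in 6 higher and 58 lower in YAP1-MAMLD1-dR3R1 tumours. Over all genes tested the share without overlap was 42.5% higher and 33.2% lower in YAP1-TFE3 tumours, and 38.0% higher and 34.9% lower in YAP1-MAMLD1-dR3R1 tumours.

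In whole tissue, fewer cells of a type and less RNA per cell cannot be told apart. The 12 neuron markers summed to 107 to 1388 CPM in YAP1-TFE3 tumours, 5796 to 8628 CPM in YAP1-FAM118B tumours and 308 to 1983 CPM in YAP1-MAMLD1-dR3R1 tumours, against 10189 to 14819 CPM in naive cortex. The 6 microglia markers summed to 1287 to 3951 CPM in YAP1-TFE3 tumours, 1827 to 2087 CPM in YAP1-FAM118B tumours and 5811 to 9960 CPM in YAP1-MAMLD1-dR3R1 tumours, against 267 to 336 CPM in naive cortex. The neuron sum was thus lower in tumours of each fusion than in naive cortex. Other marker lists differed between the groups as well. The 6 myelin markers summed to 562 to 895 CPM in YAP1-TFE3 tumours and 1993 to 4537 CPM in YAP1-FAM118B tumours. They summed to 1789 to 4127 CPM in YAP1-MAMLD1-dR3R1 tumours, against 5509 to 11115 CPM in naive cortex. The part of cell makeup in the subunit levels was not tested.

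The members are short genes: their proteins have a median of 142 residues, against 467 over the 15333 tested genes with a length. In YAP1-TFE3 tumours over naive cortex other genes for proteins under 150 residues had a median log2 fold change of 0.49, and the 46 members of that size 0.70. From 150 to under 300 residues the medians lay close together, at 0.47 for other genes and 0.51 for the 24 members. At 300 to 499 residues the medians were 0.28 for other genes and 0.69 for the 8 members. In the next class of longer proteins they were 0.13 for other genes and 0.81 for the 4 members. With a correction of each library for protein length, 41 members were called higher and 8 lower in YAP1-TFE3 tumours over naive cortex, 1 higher and 67 lower in YAP1-MAMLD1-dR3R1 tumours, and 1 higher and 60 lower in YAP1-FAM118B tumours. That correction also removes the mean of each library, which shifts every gene. The share of all genes called under it, or under the centred form that follows, is not given here. The counts under both therefore have no background beside them. A centred form that keeps it, chosen after seeing the data, gave 46 higher and 6 lower in YAP1-TFE3 tumours, 3 higher and 61 lower in YAP1-MAMLD1-dR3R1 tumours, and 2 higher and 36 lower in YAP1-FAM118B tumours (1 and 26 with the replicate number as a block). Leaving out naive replicate 1 or any 1 YAP1-TFE3 library lowered the median of all genes in YAP1-TFE3 tumours over naive cortex to between 0.00 and 0.03, and that of the members to between 0.46 and 0.51.

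**Figure D2:**
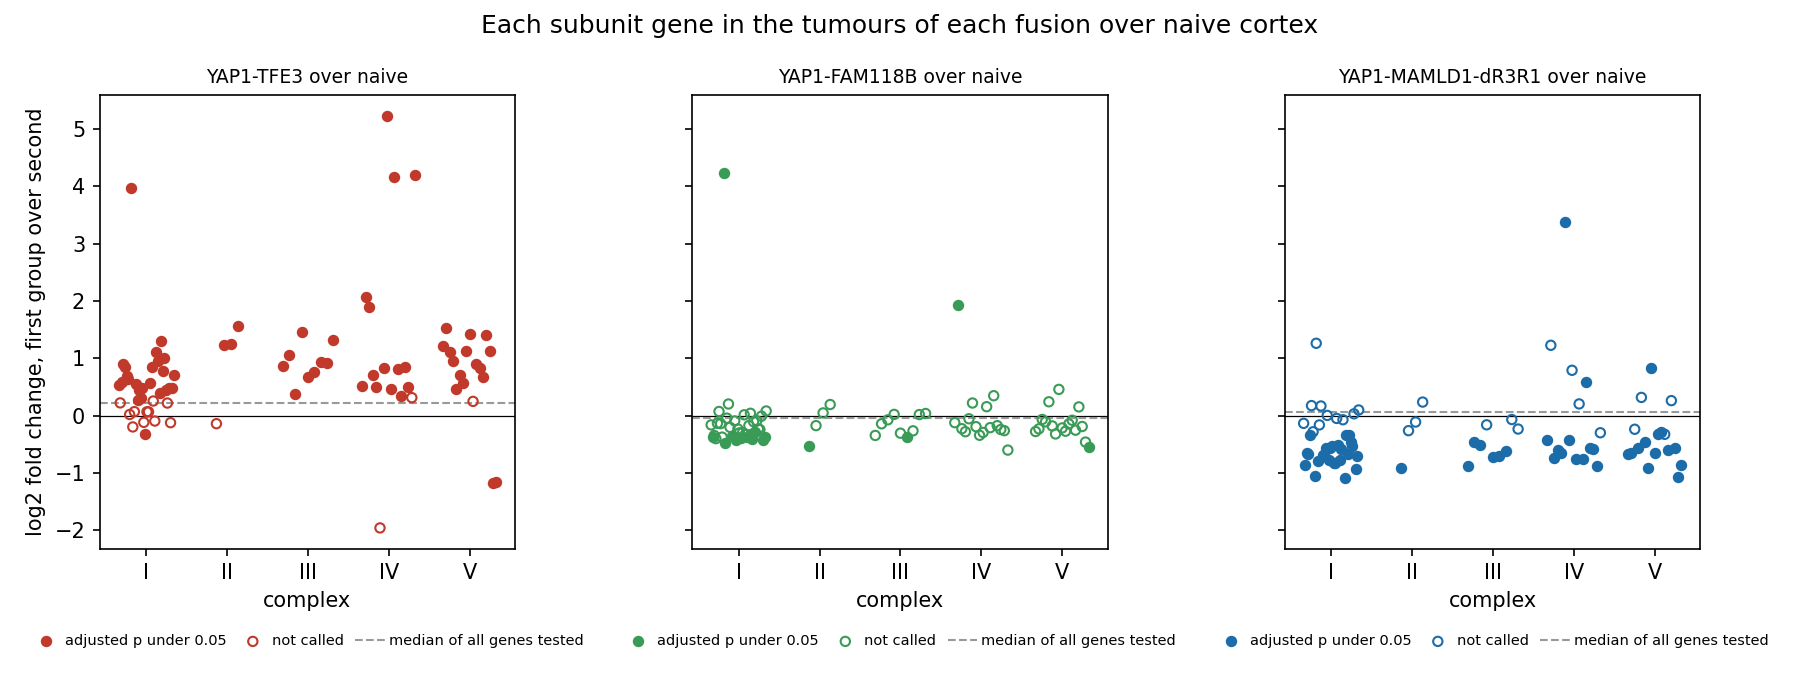
Log2 fold change (y axis) of each of the 82 subunit genes in the tumours of each fusion over naive cortex, by complex (x axis), with filled points at an adjusted p under 0.05 and a dashed line at the median of all genes tested. In YAP1-TFE3 tumours 64 filled points lie above 0 and 3 below, and in YAP1-MAMLD1-dR3R1 tumours 3 lie above and 54 below.

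Complex I, the NADH dehydrogenase, divided between the fusions. Its 36 genes summed to 3769, 3580.0 and 4142 CPM in YAP1-TFE3 tumours, 2414, 2345 and 2220.0 CPM in YAP1-FAM118B tumours, 1817, 1912 and 1936 CPM in YAP1-MAMLD1-dR3R1 tumours, and 2680.0, 2854 and 2672 CPM in naive cortex. In YAP1-TFE3 tumours over naive cortex 24 rose and 1 fell (median 0.48), and in YAP1-MAMLD1-dR3R1 tumours none rose and 25 fell (median -0.54). Of the 7 core subunits, which carry the flavin and iron-sulfur clusters and line the path of the electrons, 5 rose in YAP1-TFE3 tumours over naive cortex and 6 fell in YAP1-MAMLD1-dR3R1 tumours. The 29 other genes of the complex had 19 higher and 1 lower in YAP1-TFE3 tumours, and 19 lower in YAP1-MAMLD1-dR3R1 tumours.

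Ndufs1 (chr1:63143592-63176822), the largest core subunit, had 241, 252 and 288 CPM in YAP1-TFE3 tumours, 151, 154 and 140.5 CPM in YAP1-FAM118B tumours, 101, 89.3 and 86.8 CPM in YAP1-MAMLD1-dR3R1 tumours, and 193, 199.7 and 198 CPM in naive cortex. Its 4 groups did not overlap. The rise of Ndufs1 in YAP1-TFE3 tumours over naive cortex was 0.40 ± 0.11 (SE, adjusted p = 0.00723) and was not called without naive replicate 1 (0.19, adjusted p = 0.219) or without any 1 YAP1-TFE3 library (0.18 to 0.28).

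Ndufs3, another core subunit, averaged 137 ± 6.47 CPM in YAP1-TFE3 tumours and 80.3 ± 5.78 CPM in naive cortex (SD, n = 3 each), a log2 fold change of 0.77 ± 0.09 (SE, adjusted p = 5.8e-05 by edgeR). Ndufs4, an accessory subunit needed for a stable complex, averaged 123 ± 10.2 CPM in YAP1-TFE3 tumours and 61.3 ± 3.38 CPM in naive cortex, a difference of 1.00 ± 0.11 (adjusted p = 2.98e-05 by edgeR). Ndufc1, a small accessory subunit of the membrane arm, had 78.8, 72.5 and 64.2 CPM in YAP1-TFE3 tumours, against 34.0, 33.3 and 32.0 CPM in naive cortex. The Ndufc1 libraries of the 2 groups lay far apart, at a log2 fold change of 1.12 ± 0.13 (adjusted p = 5.37e-05).

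On the lower side, Ndufa10, an accessory subunit, averaged 60.9 ± 2.81 CPM in YAP1-MAMLD1-dR3R1 tumours and 110.1 ± 3.70 CPM in naive cortex (SD, n = 3 each), a log2 fold change of -0.85 ± 0.10 (SE, adjusted p = 5.45e-05 by edgeR). Ndufa9, which sits where the matrix and membrane arms meet, changed by -0.68 ± 0.09 (adjusted p = 0.000114) and Ndufb6, of the membrane arm, by -0.82 ± 0.11 (adjusted p = 0.000132) in YAP1-MAMLD1-dR3R1 tumours over naive cortex. Ndufs4 was also called lower there (-0.34), and the call was not kept without naive replicate 2 (adjusted p = 0.0742) or YAP1-MAMLD1-dR3R1 replicate 1 (adjusted p = 0.064). Ndufb3, of the membrane arm, was the 1 complex I gene called lower in YAP1-TFE3 tumours over naive cortex (35.2, 38.6 and 33.5 CPM in YAP1-TFE3 tumours, against 43.1, 49.0 and 42.4 CPM in naive cortex). Its difference of -0.33 ± 0.11 (adjusted p = 0.0227) was not called without naive replicate 2 (-0.26, adjusted p = 0.0935) and was -0.54 without naive replicate 1 and -0.62 without YAP1-TFE3 replicate 2. Ndufa6, an accessory subunit, was called in none of the 6 contrasts and averaged between 54.3 and 63.8 CPM in the 4 groups. Ndufa7, whose promoter holds the E-box shown above, averaged 61.4 ± 7.50 CPM in YAP1-TFE3 tumours and 42.0 ± 5.60 CPM in naive cortex, and its call (0.55, adjusted p = 0.0105 by edgeR) was lost without naive replicate 1 or without YAP1-TFE3 replicate 1 or 2 (0.28 to 0.36).

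Complex II, succinate dehydrogenase, is also an enzyme of the tricarboxylic acid cycle, and 3 of its 4 genes rose in YAP1-TFE3 tumours. Sdhb (chr4:140961271-140979198), the iron-sulfur subunit, had 292, 310.1 and 328 CPM in YAP1-TFE3 tumours, 117, 124 and 111 CPM in YAP1-FAM118B tumours, 102, 119.8 and 109 CPM in YAP1-MAMLD1-dR3R1 tumours, and 136, 143 and 118 CPM in naive cortex. The membrane anchor Sdhc had 235, 241 and 251 CPM in YAP1-TFE3 tumours, against 97.8, 107 and 101 CPM in naive cortex. The other anchor, Sdhd (chr9:50596340-50603849), had 282, 255 and 371 CPM in YAP1-TFE3 tumours, against 101, 103 and 103 CPM in naive cortex. All 3 genes were more than doubled in every YAP1-TFE3 library over the naive mean, with log2 fold changes of 1.23 ± 0.12, 1.25 ± 0.09 and 1.57 ± 0.16 (SE, adjusted p = 1.33e-05, 3.47e-06 and 1.97e-05 by edgeR).

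Sdha (chr13:74322255-74350240), the flavoprotein that oxidises succinate, did not go with them. It had 375, 375 and 463 CPM in YAP1-TFE3 tumours, 298, 312 and 315 CPM in YAP1-FAM118B tumours, 246, 246 and 218 CPM in YAP1-MAMLD1-dR3R1 tumours, and 447, 418 and 468 CPM in naive cortex. YAP1-TFE3 and naive libraries overlapped (log2 fold change -0.14 ± 0.12, adjusted p = 0.332). In YAP1-MAMLD1-dR3R1 tumours over naive cortex Sdha was the 1 complex II gene called, at -0.91 ± 0.12 (adjusted p = 0.000172), while Sdhd differed by 0.24 ± 0.16 (adjusted p = 0.203).

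All 9 genes of complex III, the cytochrome bc1 complex, rose in YAP1-TFE3 tumours over naive cortex (median 0.91), and 6 fell in YAP1-MAMLD1-dR3R1 tumours (median -0.51). They summed to 2180.0, 2100.0 and 2554 CPM in YAP1-TFE3 tumours, 1105, 1051 and 1048 CPM in YAP1-FAM118B tumours, 814, 865 and 860 CPM in YAP1-MAMLD1-dR3R1 tumours, and 1227, 1314 and 1206 CPM in naive cortex. Cyc1 (chr15:76343513-76346260), cytochrome c1, which hands electrons to cytochrome c, had 291, 295 and 378 CPM in YAP1-TFE3 tumours, 147, 133 and 135 CPM in YAP1-FAM118B tumours, 94.7, 98.2 and 93.6 CPM in YAP1-MAMLD1-dR3R1 tumours, and 174, 194 and 159 CPM in naive cortex. Its groups did not overlap, and it changed by 0.87 ± 0.13 in YAP1-TFE3 tumours (SE, adjusted p = 0.000221) and by -0.88 ± 0.13 in YAP1-MAMLD1-dR3R1 tumours (adjusted p = 0.000283) over naive cortex.

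The core protein Uqcrc2, the complex III gene with the highest mean CPM, had 524, 461 and 580.4 CPM in YAP1-TFE3 tumours, against 313, 316 and 298 CPM in naive cortex. It differed by 0.76 ± 0.12 (SE, adjusted p = 0.000312). Uqcrc1, the other core protein, differed by 0.68 ± 0.12 (adjusted p = 0.000476), and by 0.42 without YAP1-TFE3 replicate 3 (adjusted p = 0.00694). Uqcrfs1, the Rieske iron-sulfur protein, averaged 209.7 ± 31.7 CPM in YAP1-TFE3 tumours and 109.7 ± 5.88 CPM in naive cortex (SD, n = 3 each; log2 fold change 0.94 ± 0.12, adjusted p = 7.56e-05 by edgeR). The small subunits were uneven. Uqcr11 rose least of the 9 genes, by 0.39 ± 0.14 (adjusted p = 0.0315), and Uqcrh by 0.91 ± 0.13 (adjusted p = 0.000181). Both are named after their values were seen. Uqcr10 rose by 1.05 ± 0.10 (adjusted p = 1.17e-05), Uqcrb by 1.45 ± 0.15 (adjusted p = 2.58e-05) and Uqcrq by 1.32 ± 0.10 (adjusted p = 3.92e-06). Uqcrb, which lies at the quinone pocket, and Uqcrq were not called in YAP1-MAMLD1-dR3R1 tumours over naive cortex (-0.16 and -0.23, adjusted p = 0.382 and 0.0627), where Uqcrc1 and Uqcrc2 changed by -0.73 ± 0.12 and -0.71 ± 0.12 (adjusted p = 0.000436 and 0.000627).

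Complex IV, cytochrome c oxidase, had 14 of 16 genes higher and none lower in YAP1-TFE3 tumours over naive cortex, and 2 higher and 10 lower in YAP1-MAMLD1-dR3R1 tumours. They summed to 2937, 2743 and 3311 CPM in YAP1-TFE3 tumours, 1675, 1525 and 1516 CPM in YAP1-FAM118B tumours, 1152, 1315 and 1282 CPM in YAP1-MAMLD1-dR3R1 tumours, and 1746, 1874 and 1626 CPM in naive cortex. Without the 5 minor isoforms, 10 of 11 rose in YAP1-TFE3 tumours, and in YAP1-MAMLD1-dR3R1 tumours 1 rose and 10 fell. Cox5a (chr9:57517328-57532427), a subunit on the matrix side, changed most among these 11 in YAP1-TFE3 tumours over naive cortex (1.89 ± 0.11, adjusted p = 9.78e-07). It had 549.5, 470.5 and 571 CPM in YAP1-TFE3 tumours, 123, 118 and 124 CPM in YAP1-FAM118B tumours, 87.1, 89.3 and 80.7 CPM in YAP1-MAMLD1-dR3R1 tumours, and 137, 148 and 143 CPM in naive cortex. All 4 groups were apart, with YAP1-TFE3 far above the rest, and the difference of YAP1-MAMLD1-dR3R1 tumours from naive cortex was -0.74 ± 0.11 (SE, adjusted p = 0.00027).

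Cox4i1, the ubiquitous form of subunit 4 and the complex IV gene with the highest mean CPM, had 529.8, 461 and 681 CPM in YAP1-TFE3 tumours, against 389.9, 419 and 354 CPM in naive cortex. Its difference of 0.52 ± 0.15 (adjusted p = 0.0105) was lost without naive replicate 1 (0.32, adjusted p = 0.106), YAP1-TFE3 replicate 1 (0.38, adjusted p = 0.0574) or YAP1-TFE3 replicate 3 (0.20, adjusted p = 0.181). Cox7a2, the ubiquitous form of subunit 7a, had 177, 182 and 192 CPM in YAP1-TFE3 tumours, 98.6, 91.5 and 83.0 CPM in YAP1-FAM118B tumours, 56.9, 65.7 and 64.3 CPM in YAP1-MAMLD1-dR3R1 tumours, and 101, 109 and 105 CPM in naive cortex. Cox7a2 changed by 0.81 ± 0.10 in YAP1-TFE3 tumours over naive cortex, with groups that did not overlap. Cox6b1, the ubiquitous form of subunit 6b, averaged 289 CPM in YAP1-TFE3 tumours and 162 CPM in naive cortex, a difference of 0.83 ± 0.14, or 0.56 without YAP1-TFE3 replicate 3 (adjusted p = 0.00497 by edgeR). Cox8a, the ubiquitous form of subunit 8, fell by 0.87 in YAP1-MAMLD1-dR3R1 tumours over naive cortex (SE 0.14, adjusted p = 0.000509), and was the 1 gene of the 11 not called in YAP1-TFE3 tumours (0.32 ± 0.14, adjusted p = 0.068).

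Cox7a2l, a relative of Cox7a2 that links complexes III and IV into supercomplexes, went against the other ubiquitous complex IV genes in YAP1-MAMLD1-dR3R1 tumours. It had 95.9, 119 and 119.7 CPM in YAP1-MAMLD1-dR3R1 tumours, against 71.1, 79.3 and 71.6 CPM in naive cortex. Every tumour library was above every naive one (0.59, adjusted p = 0.00295), but with the correction for protein length the difference was 0.17 (adjusted p = 0.311).

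Of the minor isoforms, Cox6b2, Cox7a1 and Cox6a2 differed between YAP1-TFE3 and YAP1-MAMLD1-dR3R1 tumours by more than any ubiquitous subunit did, without overlap of libraries. The log2 fold changes of Cox8b and Ndufa4l2 were also larger than those of the ubiquitous subunits, but their libraries overlapped. That of Cox4i2 was not larger. Shares within a pair are given per base of transcript, since the forms differ in length. Cox6b2 (chr7:4751792-4753094), the testis form of subunit 6b, had 92.7, 52.5 and 31.9 CPM in YAP1-TFE3 tumours, 0.698, 2.35 and 0.646 CPM in YAP1-FAM118B tumours, 4.58, 1.31 and 2.22 CPM in YAP1-MAMLD1-dR3R1 tumours, and 1.11, 1.09 and 2.51 CPM in naive cortex. Only the YAP1-TFE3 libraries exceeded 5 CPM. The fold change over naive cortex was 37.6 (log2 5.23 ± 0.73, adjusted p = 0.000142), and Cox6b2 made up 35.5, 24.0 and 13.0% of the Cox6b1 and Cox6b2 transcripts in YAP1-TFE3 tumours, against 1.09, 0.996 and 2.47% in naive cortex.

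Cox7a1 (chr7:30184171-30186030), the heart and skeletal muscle form of subunit 7a, had 22.8, 21.5 and 46.8 CPM in YAP1-TFE3 tumours, 2.46, 1.09 and 2.12 CPM in YAP1-FAM118B tumours, 1.59, 1.93 and 2.35 CPM in YAP1-MAMLD1-dR3R1 tumours, and 1.52, 1.59 and 1.98 CPM in naive cortex. All 3 YAP1-TFE3 libraries were above all others, at a fold change of 17.8 over naive cortex (log2 4.16 ± 0.41, adjusted p = 1.69e-05). Its share of the Cox7a1 and Cox7a2 transcripts was 14.9, 13.8 and 24.8% in YAP1-TFE3 tumours, against 2.01, 1.94 and 2.49% in naive cortex. The 10 striated muscle markers summed to 2.85 to 5.81 CPM in YAP1-TFE3 tumours, against 25.3 to 33.7 CPM in naive cortex. By group mean 7 of the 10 were lower in YAP1-TFE3 tumours, and Tnni2 (1.02 CPM, against 0.0684 CPM in naive cortex), Ckm (0.324 against 0.14 CPM) and Tnnt3 (0.166 against 0.158 CPM) were higher. The part of muscle cells in the level of Cox7a1 was not tested. The ubiquitous Cox7a2 rose as well.

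Cox6a2 (chr7:128205435-128206366), the heart and skeletal muscle form of subunit 6a, had the opposite pattern. It had 0.289, 0.222 and 2.55 CPM in YAP1-TFE3 tumours, 4.76, 6.00 and 3.14 CPM in YAP1-FAM118B tumours, 10.7, 84.5 and 28.6 CPM in YAP1-MAMLD1-dR3R1 tumours, and 3.65, 3.35 and 4.93 CPM in naive cortex. All YAP1-MAMLD1-dR3R1 libraries lay above all others and all YAP1-TFE3 libraries below them, and replicates of YAP1-MAMLD1-dR3R1 differed widely. Over naive cortex Cox6a2 rose in YAP1-MAMLD1-dR3R1 tumours by 3.37 ± 0.92 (adjusted p = 0.00928), and by 2.24 without replicate 2 of that fusion (adjusted p = 0.0462). Muscle markers summed to 8.85 to 10.3 CPM there, with 6 of the 10 lower by group mean than in naive cortex and Tnni2, Mb, Ckm and Tnnt3 higher, and their part in the level of Cox6a2 was not tested. Cox6a1, the ubiquitous form, went the other way, with 271, 264 and 315 CPM in YAP1-TFE3 tumours, 127, 128 and 129.6 CPM in YAP1-MAMLD1-dR3R1 tumours, and 209, 223 and 169.6 CPM in naive cortex (-0.65 ± 0.13 in YAP1-MAMLD1-dR3R1 tumours over naive cortex, adjusted p = 0.00202). Cox6a2 made up 6.58, 35.7 and 15.6% of the 2 transcripts in YAP1-MAMLD1-dR3R1 tumours, against 1.45, 1.25 and 2.38% in naive cortex.

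Cox4i2, the lung form of subunit 4 that is induced by low oxygen, had 8.01, 5.54 and 1.58 CPM in YAP1-TFE3 tumours, against 1.27, 1.26 and 1.06 CPM in naive cortex. It made up at most 1.78% of the Cox4i1 and Cox4i2 transcripts in any library, and its call (2.07, adjusted p = 0.0125) was lost without YAP1-TFE3 replicate 1 (1.45, adjusted p = 0.0731). Ndufa4l2, a relative of Ndufa4 that is induced by low oxygen, had 28.1, 27.8 and 5.02 CPM in YAP1-TFE3 tumours, 35.2, 5.50 and 32.1 CPM in YAP1-FAM118B tumours, 1.51, 0.677 and 7.14 CPM in YAP1-MAMLD1-dR3R1 tumours, and 0.985, 2.01 and 0.880 CPM in naive cortex. Each YAP1-TFE3 and YAP1-FAM118B library exceeded each naive one, and the groups were uneven within themselves. The difference over naive cortex was 3.97 ± 1.06 in YAP1-TFE3 tumours (adjusted p = 0.00679) and 4.22 ± 1.07 in YAP1-FAM118B tumours (adjusted p = 0.0146), the second lost without naive replicate 1 or 3. Ndufa4 itself, counted with complex I by symbol though it is found in complex IV, averaged 185 ± 44.2 CPM in YAP1-TFE3 tumours and 183 ± 13.7 CPM in naive cortex, and fell by 1.04 in YAP1-MAMLD1-dR3R1 tumours (SE 0.16, adjusted p = 0.000347). Cox8b, the muscle form of subunit 8, had 0.965, 1.33 and 21.4 CPM in YAP1-TFE3 tumours, against 0.164, 0.419 and 0.704 CPM in naive cortex. Its difference of 4.19 (adjusted p = 0.0456) was 1.27 without YAP1-TFE3 replicate 3 (adjusted p = 0.477), and the call was also lost without any 1 naive library (adjusted p = 0.0814 to 0.151).

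**Figure D3:**
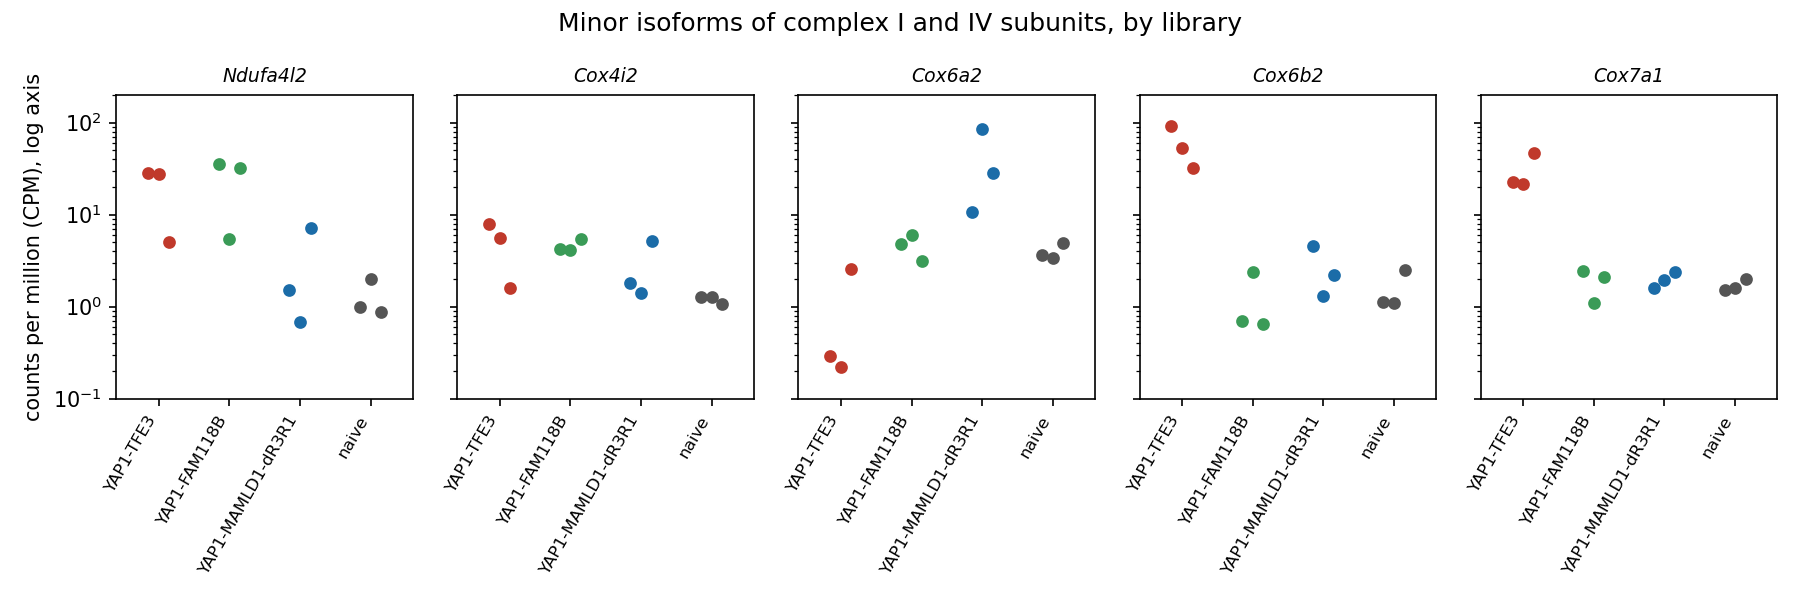
CPM on a log axis (y) of 5 minor isoforms in each of the 12 libraries (points), by group. Cox6b2 and Cox7a1 lie above 20 CPM in all 3 YAP1-TFE3 libraries and below 5 CPM in every other library, while Cox6a2 is highest in the YAP1-MAMLD1-dR3R1 libraries (10.7 to 84.5 CPM).

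Complex V, the ATP synthase, held the most abundant members. Its 17 genes summed to 8370.0, 7928 and 10424 CPM in YAP1-TFE3 tumours, 3413, 3317 and 3268 CPM in YAP1-FAM118B tumours, 2594, 2683 and 2629 CPM in YAP1-MAMLD1-dR3R1 tumours, and 3746, 3929 and 3812 CPM in naive cortex. In YAP1-TFE3 tumours over naive cortex all 5 genes of the catalytic head and its central stalk and 9 of 10 of the membrane part and outer stalk rose. In YAP1-MAMLD1-dR3R1 tumours 3 of the 5 and 7 of the 10 fell, and 1 of the 10, Atp5g2, rose.

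Atp5b (chr10:128083307-128090388), the catalytic beta subunit and the complex V gene with the highest mean CPM, had 3036, 3089 and 4558 CPM in YAP1-TFE3 tumours, 1049, 1048 and 1040.5 CPM in YAP1-FAM118B tumours, 810.0, 758 and 763 CPM in YAP1-MAMLD1-dR3R1 tumours, and 1189.6, 1244 and 1245 CPM in naive cortex. The groups did not overlap, and Atp5b changed by 1.54 ± 0.18 in YAP1-TFE3 tumours (SE, adjusted p = 4.65e-05) and by -0.66 ± 0.18 in YAP1-MAMLD1-dR3R1 tumours (adjusted p = 0.00864) over naive cortex. Its partner Atp5a1, the alpha subunit, had 2253, 1948 and 2406 CPM in YAP1-TFE3 tumours, against 943, 964 and 942 CPM in naive cortex, a difference of 1.21 ± 0.14 (adjusted p = 4.33e-05). Atp5c1, the gamma subunit that turns inside the head, rose by 1.12 ± 0.12 (adjusted p = 2.79e-05) and Atp5d, the delta subunit, by 0.95 ± 0.12 (adjusted p = 9.23e-05) in YAP1-TFE3 tumours over naive cortex. Atp5o, which joins the head to the stalk and confers oligomycin sensitivity, had 319, 308 and 366 CPM in YAP1-TFE3 tumours, against 149, 158 and 148 CPM in naive cortex (1.13 ± 0.10, adjusted p = 1.11e-05).

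The c subunit, which forms the proton-driven ring, is encoded by 3 genes with one mature product, and they moved differently. Atp5g3 (chr2:73908447-73912464) had 636, 582 and 713 CPM in YAP1-TFE3 tumours, 212, 200.2 and 212 CPM in YAP1-FAM118B tumours, 155, 154 and 152 CPM in YAP1-MAMLD1-dR3R1 tumours, and 238, 251 and 234 CPM in naive cortex. The groups did not overlap, and it changed by 1.42 ± 0.11 in YAP1-TFE3 tumours (SE, adjusted p = 4.53e-06) and by -0.65 ± 0.11 in YAP1-MAMLD1-dR3R1 tumours (adjusted p = 0.00063) over naive cortex. Atp5g1 had 101, 91.7 and 132 CPM in YAP1-TFE3 tumours, 37.1, 40.9 and 38.1 CPM in YAP1-MAMLD1-dR3R1 tumours, and 70.8, 74.1 and 73.3 CPM in naive cortex. It fell by 0.91 in YAP1-MAMLD1-dR3R1 tumours (SE 0.14, adjusted p = 0.000294), and its rise in YAP1-TFE3 tumours (0.57 ± 0.14, adjusted p = 0.00346) was 0.25 without YAP1-TFE3 replicate 3 (adjusted p = 0.0444) and was lost without naive replicate 1 (0.35, adjusted p = 0.0503). Atp5g2 (chr15:102662868-102671047) had 29.0, 29.5 and 30.9 CPM in YAP1-TFE3 tumours, 18.6, 17.1 and 20.6 CPM in YAP1-FAM118B tumours, 16.1, 28.5 and 28.0 CPM in YAP1-MAMLD1-dR3R1 tumours, and 15.5, 13.4 and 12.1 CPM in naive cortex. Naive cortex was thus the lowest group for this form, and the differences were 1.12 ± 0.21 in YAP1-TFE3 tumours (adjusted p = 0.000828) and 0.82 ± 0.21 in YAP1-MAMLD1-dR3R1 tumours (adjusted p = 0.00609), the second 0.40 with the correction for protein length (adjusted p = 0.139).

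Atp5s and Atp5sl carry the symbol of the complex but are not core subunits of it, and they fell in YAP1-TFE3 tumours. Atp5s, a coupling factor, had 6.22, 7.58 and 6.36 CPM in YAP1-TFE3 tumours, 7.92, 7.01 and 6.79 CPM in YAP1-MAMLD1-dR3R1 tumours, and 13.8, 14.1 and 17.7 CPM in naive cortex. Atp5sl, known in human cells as a factor of complex I assembly, had 14.3, 15.3 and 17.8 CPM in YAP1-TFE3 tumours, 18.4, 21.7 and 18.1 CPM in YAP1-MAMLD1-dR3R1 tumours, and 31.8, 40.0 and 34.3 CPM in naive cortex. Tumours of both fusions lay below naive cortex in every library, with log2 fold changes in YAP1-TFE3 tumours of -1.17 ± 0.21 for Atp5s and -1.16 ± 0.17 for Atp5sl (adjusted p = 0.000742 and 0.000176).

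Setting the fusions against each other tests the differences between them without naive cortex. In YAP1-TFE3 over YAP1-MAMLD1-dR3R1 tumours 70 members rose and 1 fell, where 22.6% of all genes tested were called higher and 16.9% lower. The median log2 fold change was 1.17 over the members and -0.05 over all genes, and 73 members were higher and 2 lower without overlap of libraries (27.0 and 21.1% of all genes). Complexes I to V had medians of 0.90, 1.34, 1.50, 1.23 and 1.18. Other genes for proteins under 150 residues had a median of 0.04 in this pair. The largest ubiquitous difference named was that of Cox5a, at 2.63 ± 0.11 (SE, adjusted p = 1.86e-06). Atp5b differed by 2.20 ± 0.18 (adjusted p = 2.54e-05) and Atp5g3 by 2.06 ± 0.11 (adjusted p = 4.48e-06). Sdha, not called in YAP1-TFE3 tumours over naive cortex, was higher than in YAP1-MAMLD1-dR3R1 tumours by 0.77 ± 0.12 (adjusted p = 0.00106). The 1 gene that fell was Cox6a2, at -5.33 ± 1.02 (adjusted p = 0.00276).

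In YAP1-TFE3 over YAP1-FAM118B tumours 67 members rose and 2 fell, where 28.0% of all genes tested were called higher and 23.7% lower. The median was 0.85, beside 0.08 over all genes, and 71 members were higher and 3 lower without overlap (31.4 and 26.9% of all genes). Complex II had the highest median by complex, 1.29, and complex I the lowest, 0.62. Cox6b2 differed by 5.57 ± 0.75 and Cox5a by 2.12 ± 0.11 (SE, adjusted p = 3.26e-06 for Cox5a). Atp5s and Atp5sl were the genes called lower, and neither call was kept without YAP1-FAM118B replicate 1 (adjusted p = 0.0517 and 0.0511). The neuron marker sum differed strongly between these 2 groups, as given above.

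In their summed level YAP1-FAM118B tumours lay between YAP1-MAMLD1-dR3R1 tumours and naive cortex. In YAP1-FAM118B over YAP1-MAMLD1-dR3R1 tumours 29 members rose and 1 fell, where 12.7% of all genes tested were called higher and 13.5% lower. The median was 0.31, beside -0.05 over all genes, and 49 members were higher and 1 lower without overlap (23.7 and 25% of all genes). The count was 5 without YAP1-FAM118B replicate 1 and 13 without replicate 2, in all higher. The share of all genes called also fell in those fits, from 26.2% to 10.5 and 11.6%. Of the calls named, 4 were kept under every alternative: Ndufs1 at 0.68 ± 0.11 (adjusted p = 0.00606), Ndufa10 at 0.48 ± 0.09 (adjusted p = 0.00988), Cox5a at 0.51 ± 0.11 (adjusted p = 0.0121) and Cox7a2 at 0.55 ± 0.10 (adjusted p = 0.00872). Cox6a2, the 1 gene called lower (-3.15, adjusted p = 0.0321), was lost without YAP1-MAMLD1-dR3R1 replicate 2 (-1.97, adjusted p = 0.138), without its replicate 3 (adjusted p = 0.0589) or without any 1 YAP1-FAM118B library (adjusted p = 0.079 to 0.0915).

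Over naive cortex the calls in YAP1-FAM118B tumours were fragile. By complex, 1 of 36 genes rose and 11 fell in complex I, 1 fell in each of complexes II, III and V, and 1, Cox4i2, rose in complex IV. By edgeR's quasi-likelihood test none of the 82 members was called without naive replicate 1, with 4 higher and 17 lower at an unadjusted p under 0.05, while DESeq2 on all libraries called 46. The count was 4 without naive replicate 2, 6 without naive replicate 3, 7 without YAP1-FAM118B replicate 1 and 2 without YAP1-FAM118B replicate 3. The share of all genes called also fell, from 29.7% with all libraries to 19.4% without naive replicate 1. It lay between 17.9 and 21.3% in the other fits just named. Even so, the libraries did not overlap in 44 members that were lower and 5 that were higher in YAP1-FAM118B tumours (27.1 and 29.7% of all genes tested). Sdha had the lowest fold change of the 74 members other than minor isoforms, Atp5s and Atp5sl (-0.53, against a median of -0.21), at 308 ± 8.74 CPM in YAP1-FAM118B tumours and 445 ± 25.2 CPM in naive cortex (SD, n = 3 each), and its call was lost without naive replicate 1 (-0.47, adjusted p = 0.051 by edgeR).

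**Figure D4:**
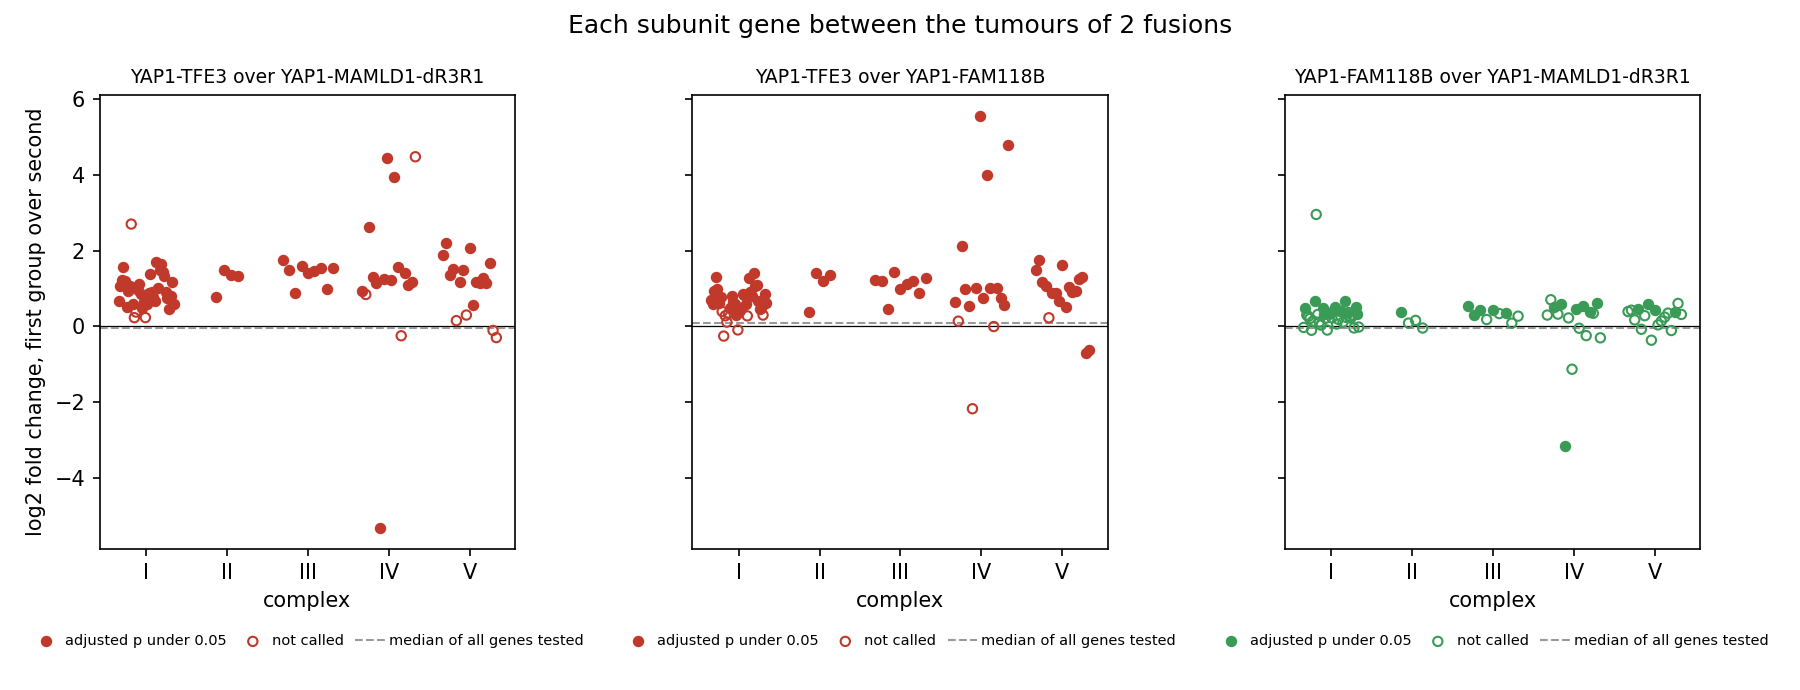
Log2 fold change (y axis) of each of the 82 subunit genes between the tumours of 2 fusions, by complex (x axis), with filled points at an adjusted p under 0.05 and a dashed line at the median of all genes tested. In YAP1-TFE3 over YAP1-MAMLD1-dR3R1 tumours 70 filled points lie above 0, and the 1 filled point below is Cox6a2 at -5.33.

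Genes that serve the complexes were taken from lists of carriers, assembly factors, coenzyme Q synthesis, mitochondrial ribosomal proteins and the tricarboxylic acid cycle. Mitochondrial ribosomal proteins, which translate the subunits encoded in mitochondrial DNA, rose in YAP1-TFE3 tumours over naive cortex in 54 of 77 and fell in 3 (median 0.60), or 70.1 and 3.90% beside 40.6 and 30.0% of all genes. In YAP1-MAMLD1-dR3R1 tumours 10 rose and 19 fell (median -0.04), or 13.0 and 24.7% beside 34.4 and 28.8% of all genes, so the share lower was near that of all genes. They summed to 3408, 3089 and 3577 CPM in YAP1-TFE3 tumours, 2199, 2059 and 2118 CPM in YAP1-FAM118B tumours, 1956, 2083 and 2128 CPM in YAP1-MAMLD1-dR3R1 tumours, and 2119, 2230.0 and 2092 CPM in naive cortex. The YAP1-MAMLD1-dR3R1 and naive libraries overlapped in this sum, unlike that of the subunit genes. In YAP1-FAM118B tumours over naive cortex 4 of the 77 rose and 3 fell (5.19 and 3.90%, beside 21.3 and 8.45%). The protein lengths of this list are not given here. In YAP1-TFE3 tumours over naive cortex genes other than the subunits had medians of 0.49 under 150 residues and 0.47 at 150 to 299.

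Of 14 genes of the tricarboxylic acid cycle, 11 rose and 1 fell in YAP1-TFE3 tumours over naive cortex (78.6 and 7.14%, beside 40.6 and 30.0% of all genes; median 0.59). In YAP1-MAMLD1-dR3R1 tumours 2 rose and 11 fell (14.3 and 78.6%, beside 34.4 and 28.8%; median -0.63), and in YAP1-FAM118B tumours 2 rose and 5 fell (14.3 and 35.7%, beside 21.3 and 8.45%). Idh2, the NADP-dependent isocitrate dehydrogenase of mitochondria, had 477, 393 and 389 CPM in YAP1-TFE3 tumours, against 34.7, 36.3 and 32.6 CPM in naive cortex. The groups lay far apart, at a fold change of 12.2 (SE of the log2 value 0.24, adjusted p = 1.81e-06), and Idh2 also rose by 1.16 ± 0.22 in YAP1-MAMLD1-dR3R1 tumours (adjusted p = 0.00124). Idh3a, the catalytic subunit of the NAD-dependent enzyme, changed by -1.66 ± 0.16 in YAP1-MAMLD1-dR3R1 tumours over naive cortex (adjusted p = 2.31e-05) and by 0.70 ± 0.15 in YAP1-TFE3 tumours (adjusted p = 0.00233, or 0.40 without YAP1-TFE3 replicate 3). Suclg2, the GTP-forming succinyl-CoA ligase subunit, rose in tumours of both, by 2.03 ± 0.22 in YAP1-TFE3 and 2.06 ± 0.22 in YAP1-MAMLD1-dR3R1 (adjusted p = 2.64e-05 and 4.02e-05).

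Assembly factors moved less evenly. Of 45, 20 rose and 9 fell in YAP1-TFE3 tumours over naive cortex (44.4 and 20%, beside 40.6 and 30.0% of all genes), with a median of 0.29 beside 0.23. In YAP1-FAM118B tumours 1 rose and 5 fell (2.22 and 11.1%, beside 21.3 and 8.45%), and in YAP1-MAMLD1-dR3R1 tumours 3 rose and 23 fell (6.67 and 51.1%, beside 34.4 and 28.8%). The shares higher in YAP1-TFE3 and lower in YAP1-FAM118B tumours were thus near those of all genes. Cox17, a copper chaperone of complex IV, and Coa3, an early complex IV assembly factor, rose in YAP1-TFE3 tumours by 1.36 ± 0.13 and 1.37 ± 0.13 (SE, adjusted p = 1.51e-05 and 1.61e-05). Ttc19, a factor of complex III maturation, had 16.3, 27.8 and 20.4 CPM in YAP1-TFE3 tumours, 51.6, 68.9 and 49.4 CPM in YAP1-FAM118B tumours, 30.6, 21.4 and 17.3 CPM in YAP1-MAMLD1-dR3R1 tumours, and 109.9, 92.5 and 101 CPM in naive cortex. Every tumour library was thus below naive cortex, by -2.23 ± 0.25 in YAP1-TFE3 tumours (adjusted p = 3.99e-05), while all 9 complex III subunit genes rose there. In coenzyme Q synthesis 6 of 13 rose and 3 fell in YAP1-TFE3 tumours over naive cortex, near the shares of all genes (46.2 and 23.1%, beside 40.6 and 30.0%). In that list none passed in YAP1-FAM118B tumours, and 2 rose and 8 fell in YAP1-MAMLD1-dR3R1 tumours (15.4 and 61.5%, beside 34.4 and 28.8%). Coq7, the hydroxylase near the end of the pathway, rose by 1.73 ± 0.14 (adjusted p = 6.56e-06) in YAP1-TFE3 tumours, and the kinase-like Coq8a, listed under its older symbol Adck3, fell to 6.75, 11.2 and 7.66 CPM in YAP1-TFE3 tumours, against 53.0, 60.7 and 52.6 CPM in naive cortex.

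Among 9 carriers and other subunits outside the symbol rule, 5 rose and 3 fell in YAP1-TFE3 tumours over naive cortex (55.6 and 33.3%, beside 40.6 and 30.0% of all genes). In YAP1-FAM118B tumours 1 rose and 1 fell (11.1% each, beside 21.3 and 8.45%), and in YAP1-MAMLD1-dR3R1 tumours 3 rose and 3 fell, near the shares of all genes (33.3% each, beside 34.4 and 28.8%). The electron transfer flavoprotein, which feeds electrons from fatty acid oxidation to coenzyme Q, rose in both chains in YAP1-TFE3 tumours over naive cortex. Etfa had 149, 125 and 141 CPM in YAP1-TFE3 tumours, against 32.2, 35.7 and 37.6 CPM in naive cortex, with no overlap (1.98 ± 0.12, adjusted p = 1.12e-06). Etfb rose by 2.21 ± 0.16 and its oxidoreductase Etfdh by 1.54 ± 0.15 (adjusted p = 3.27e-06 and 1.5e-05). Cycs, cytochrome c, had 101, 107 and 173 CPM in YAP1-TFE3 tumours, 44.6, 36.8 and 41.5 CPM in YAP1-FAM118B tumours, 23.8, 29.6 and 26.8 CPM in YAP1-MAMLD1-dR3R1 tumours, and 53.6, 51.1 and 59.3 CPM in naive cortex. Its groups kept the order of the subunit genes, and its difference of 1.22 ± 0.20 in YAP1-TFE3 tumours (adjusted p = 0.000374) was 0.78 without YAP1-TFE3 replicate 3 (adjusted p = 0.00161). Atpif1, the inhibitor of ATP synthase when it runs in reverse, had 43.8, 51.8 and 67.5 CPM in YAP1-TFE3 tumours, against 123, 120.2 and 95.0 CPM in naive cortex. It fell (-1.05 ± 0.17, adjusted p = 0.00038) where the synthase's own subunits rose. Dhodh and Gpd2, dehydrogenases that pass electrons to coenzyme Q from pyrimidine synthesis and from glycerol 3-phosphate, also fell in YAP1-TFE3 tumours (-0.95 ± 0.18 and -0.68 ± 0.26, adjusted p = 0.000839 and 0.0393).

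**Figure D5:**
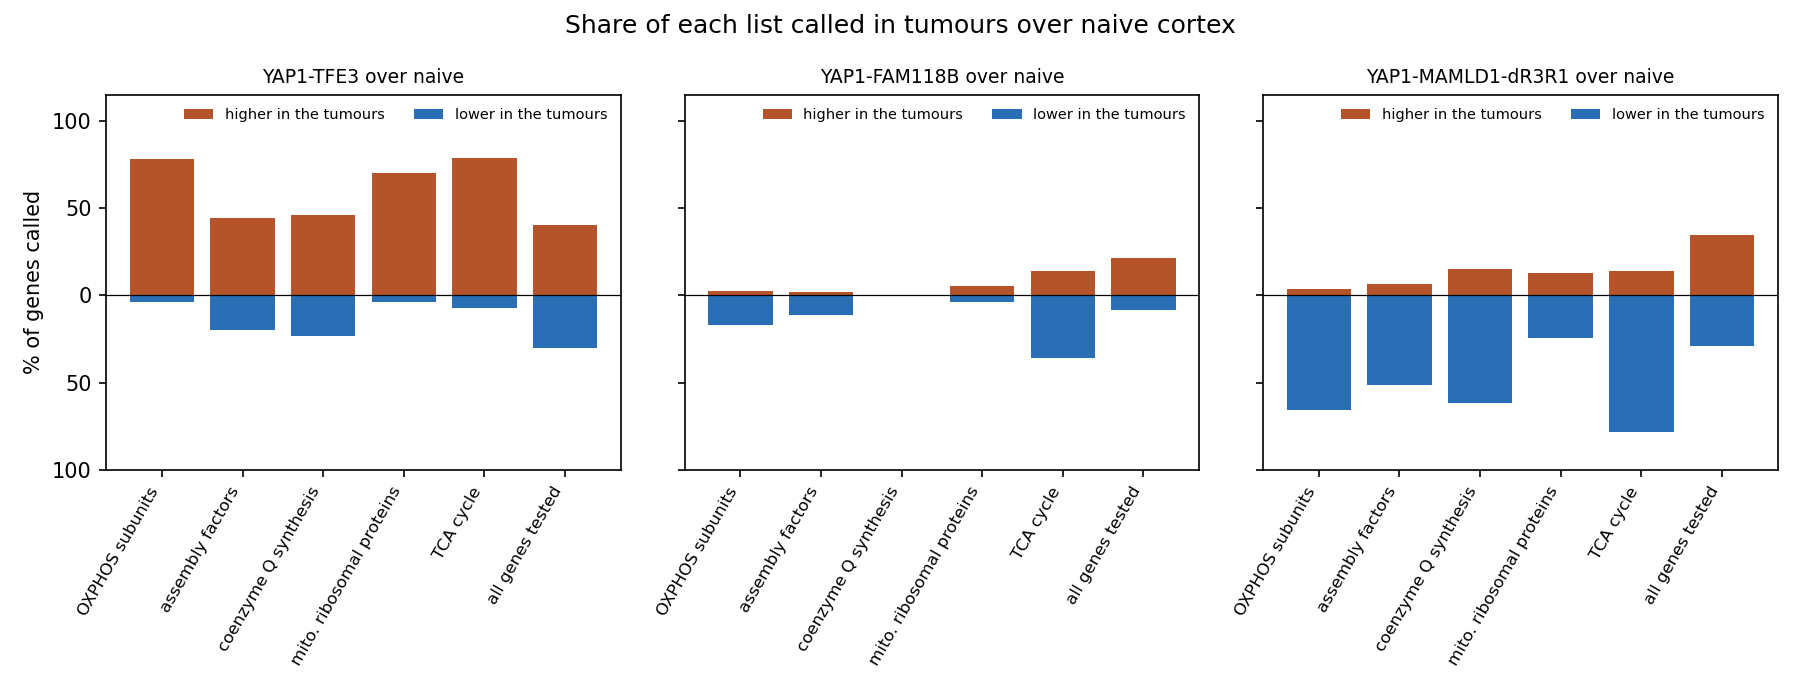
Share of each list called higher (bars above 0) or lower (bars below 0) at an adjusted p under 0.05, in percent (y axis), in the tumours of each fusion over naive cortex, beside all genes tested. In YAP1-MAMLD1-dR3R1 tumours 65.9% of the subunit genes and 24.7% of the mitochondrial ribosomal proteins were called lower, and in YAP1-TFE3 tumours 78.0% and 70.1% were called higher.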

How the data were processed

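Each of the 12 libraries has deposited counts of reads by gene symbol, not normalized. The submitters' processing notes name HTSeq and the build mm10 for the authors' counting. The sources used here name no tool version, aligner, annotation or strand setting, so overlapping, antisense and near-identical genes cannot be told from each other. Processed copies of the respiratory genes could take reads from them.

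Genes were kept with filterByExpr (minimum count 10; 16364 kept). Libraries were scaled by TMM. All 12 libraries entered 1 quasi-likelihood fit (edgeR 4.0.16 with limma 3.58.1, R 4.3.3), and for each of 6 contrasts p-values were adjusted by Benjamini-Hochberg over the genes kept, with a threshold of 0.05. SEs were derived from the log2 fold change and its F statistic. CPM is the count divided by the TMM-scaled library size. Total counts of 19850220 to 24760814 per library bound the precision, and the spread between libraries is given as SD over 3. The script was tested on simulated data with known changes. Protein and transcript lengths come from GENCODE M21, and coordinates and promoters from RefSeq (GRCm38.p6), in which all 85 symbols matched.

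The members, the lists, the groupings by role and the named genes were chosen with earlier results of these data known. Named genes were both members of each isoform pair, up to 3 called members of each complex per contrast by adjusted p, called members going against the majority of their complex, the member with the highest mean CPM of each complex, those called in no contrast, members left out by the filter, and from each related list up to 3 called genes by adjusted p and up to 2 against the majority. One gene that this rule names is not reported here. Libraries were grouped by their source labels. The alternatives tried were a fit with DESeq2 1.42.0, scaling by upper-quartile or RLE factors or by library size alone, other filters (none, or 1 CPM in 3 libraries), fits to the compared groups alone, a replicate block, a protein-length correction, and fits without single libraries or without both libraries in which Xist and Y-linked genes exceeded 10 CPM.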

Additional observations from a re-analysis of the deposited data

Results flagged for a closer look

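The contrasts between fusions test directly whether the effects of the fusions over the shared naive libraries differ. By edgeR's quasi-likelihood test 71 of 82 subunit genes were called in YAP1-TFE3 over YAP1-MAMLD1-dR3R1 tumours, 70 of them higher. In YAP1-TFE3 over YAP1-FAM118B tumours 69 were called, 67 of them higher. In YAP1-FAM118B over YAP1-MAMLD1-dR3R1 tumours 30 were called, 29 of them higher, and that count was 5 without YAP1-FAM118B replicate 1. The share of all genes called fell there as well, from 26.2 to 10.5%. With 3 libraries a group, no single library could be screened as an outlier within its group.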

How the results depend on the processing

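Counts of called members in YAP1-TFE3 over naive, YAP1-MAMLD1-dR3R1 over naive, YAP1-TFE3 over YAP1-MAMLD1-dR3R1 and YAP1-TFE3 over YAP1-FAM118B stayed within 1.5 times the reported 67, 57, 71 and 69 under every alternative run. These counts join both directions. Members called higher in YAP1-TFE3 over naive, taken alone, fell beyond that bound with the protein-length correction, and more were called lower, as given above. Leaving out 1 library gave totals of 50 to 63, 49 to 59, 65 to 69 and 52 to 65. In YAP1-FAM118B over naive (16 called) the count was 46 with DESeq2, 30 with RLE factors, 25 with upper-quartile factors, 10 with no filter, 61 with the protein-length correction, 4 without naive replicate 2 and YAP1-FAM118B replicate 2 together, and 0 to 16 with 1 library left out. In YAP1-FAM118B over YAP1-MAMLD1-dR3R1 (30 called) it was 48 with DESeq2, 47 at a minimum of 1 CPM in 3 libraries, 4 without that pair, and 5 to 25 with 1 left out. The cause of these shifts was not tested. Fits that left libraries out also had fewer samples. Of all genes, 29.7% were called in YAP1-FAM118B over naive with all libraries, 25.2% without that pair and 17.9 to 32.8% with 1 left out. In YAP1-FAM118B over YAP1-MAMLD1-dR3R1 these shares were 26.2%, 6.08% and 10.0 to 28.1%.

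Deviations of same-numbered libraries from their group means had correlations from -0.111 to 0.324, the highest between replicates 3 of YAP1-MAMLD1-dR3R1 and YAP1-TFE3. Libraries of different numbers were not set beside them, so whether the numbers mark pairs was not tested. With the replicate block YAP1-FAM118B over naive gave 10, and 61 with the block and the protein-length correction. A centred protein-length correction, chosen after seeing the data because the first also removes each library's mean, gave 38, and 27 with the replicate block. Shares of all genes called under these corrections are not given here. Relative to TMM the median of all genes in YAP1-TFE3 over naive moved by -0.12 to -0.19 under other scalings, with the member median between 0.50 and 0.57. It moved by -0.14 and -0.19 in YAP1-TFE3 over YAP1-MAMLD1-dR3R1 with upper-quartile factors and library size, and by -0.21 in YAP1-TFE3 over YAP1-FAM118B with library size, with member medians of 1.02, 0.97 and 0.63. Cox7a2l in YAP1-TFE3 over naive reversed to -0.042 with the protein-length correction and -0.047 with the block added. Of 6800 values of 358 named results, 6194 kept their side of the threshold, 604 lost their call and 2 reversed. Shallow minor isoforms are limited by counts: Cox8b had none in 2 libraries.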
